A study of Mus musculus with 192 samples.

Results

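The genes described here carry glucose into the cell, break it down to lactate, or belong to the response to low oxygen. The list holds 36 genes given by name, and all 36 were among the 23481 gene symbols of the count table. Of these, 30 passed the filter on low counts that left 4720 genes for testing, and the other 6 (Pfkm, Pfkfb4, Aldoc, Adm, Ankrd37 and Mxi1) are given as counts. The list holds glucose transporters (Slc2a1, Slc2a6), hexokinases (Hk1, Hk2, Hk3), the enzymes that follow from Gpi1 to Pkm, the lactate genes Ldha, Slc16a1 and Slc16a3, the branch-point enzymes Pdk1 and Pgm2, the oxygen-response regulators Hif1a, Egln1 and Egln3, and 9 genes known as targets of that response, from Bnip3 to Mxi1.

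All libraries came from dendritic cells, which take up and present antigen, cultured from the bone marrow of female C57BL/6J mice aged 6 to 8 weeks with the growth factor GM-CSF at 15 ng/ml. The labels place 100000 cells in each well, give every stimulation 6 h, state no dose, and mark no group with an engineered allele. Ctrl is the group without a ligand, and 63 groups received PAM, LPS (lipopolysaccharide, a bacterial outer membrane component), HMW, Zymosan (a yeast cell wall preparation, labelled as zymosan depleted), SeV, cGAMP (3',3'-cGAMP, a cyclic dinucleotide) or CpGB, as 7 single ligands, 21 pairs and 35 triplets. Each of the 64 groups has 3 libraries. The labels do not say whether the 3 came from separate cultures, so p-values measure only the spread between these libraries.

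Glycolysis splits glucose into pyruvate in the cytosol, and lactate dehydrogenase and the monocarboxylate transporters allow the product to leave the cell as lactate. Hypoxia-inducible factor 1, whose oxygen-regulated subunit is encoded by Hif1a, is marked for destruction by the prolyl hydroxylases of the Egln family while oxygen is present, and when it accumulates it binds short elements with the core ACGTG or GCGTG near genes of glucose use and oxygen supply. Dendritic cells stimulated through pattern recognition receptors are known for a rapid rise in glycolysis.

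The promoters below belong to genes that differ in what follows. Egln3, Bnip3, Slc16a3 and Slc2a1 rose when Zymosan was added. The glucose transporter gene Slc2a6 and the hexokinase gene Hk3 were called with other ligands given alone and not with Zymosan alone. Averaged over backgrounds, Hk3 rose with Zymosan as well. Each is the stretch of 250 bases before the gene's annotated start in RefSeq on GRCm38.p6, read 5′ to 3′ on the gene's strand, and capitals mark ACGTG or GCGTG on either strand, so that CACGT and CACGC are the same cores on the other strand. The windows are chr12:54203875-54204124 on the minus strand for Egln3, chr7:138909507-138909756 on the minus strand for Bnip3, chr11:120948817-120949066 on the plus strand for Slc16a3, chr4:119108495-119108744 on the plus strand for Slc2a1, chr2:27027999-27028248 on the minus strand for Slc2a6, and chr13:55021386-55021635 on the minus strand for Hk3.
Egln3: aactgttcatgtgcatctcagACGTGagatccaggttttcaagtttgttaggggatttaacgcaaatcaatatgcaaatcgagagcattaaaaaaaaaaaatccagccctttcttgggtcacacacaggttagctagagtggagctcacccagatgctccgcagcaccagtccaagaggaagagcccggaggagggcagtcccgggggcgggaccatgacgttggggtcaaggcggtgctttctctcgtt
Bnip3: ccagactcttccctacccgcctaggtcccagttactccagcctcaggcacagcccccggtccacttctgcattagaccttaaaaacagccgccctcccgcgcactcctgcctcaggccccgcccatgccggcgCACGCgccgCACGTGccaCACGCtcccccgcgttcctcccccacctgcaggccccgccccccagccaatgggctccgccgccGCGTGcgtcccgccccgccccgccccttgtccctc
Slc16a3: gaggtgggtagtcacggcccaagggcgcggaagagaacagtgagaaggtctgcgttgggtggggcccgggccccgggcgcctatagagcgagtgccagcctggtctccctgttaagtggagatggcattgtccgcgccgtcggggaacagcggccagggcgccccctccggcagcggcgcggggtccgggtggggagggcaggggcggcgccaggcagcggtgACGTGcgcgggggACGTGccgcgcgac
Slc2a1: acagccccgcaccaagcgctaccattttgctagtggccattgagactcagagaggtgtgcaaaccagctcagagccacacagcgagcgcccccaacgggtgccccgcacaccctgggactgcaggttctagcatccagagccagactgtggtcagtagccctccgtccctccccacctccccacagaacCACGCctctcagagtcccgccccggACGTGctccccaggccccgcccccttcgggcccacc
Slc2a6: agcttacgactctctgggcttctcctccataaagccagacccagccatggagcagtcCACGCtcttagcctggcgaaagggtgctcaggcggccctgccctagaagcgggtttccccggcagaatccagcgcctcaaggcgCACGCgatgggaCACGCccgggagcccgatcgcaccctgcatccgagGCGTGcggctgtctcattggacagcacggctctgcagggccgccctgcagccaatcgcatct
Hk3: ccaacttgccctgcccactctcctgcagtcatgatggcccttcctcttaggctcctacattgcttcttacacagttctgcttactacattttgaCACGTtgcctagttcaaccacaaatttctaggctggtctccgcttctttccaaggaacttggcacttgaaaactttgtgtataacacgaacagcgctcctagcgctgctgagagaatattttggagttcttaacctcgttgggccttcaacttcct
Overlapping matches included, the Egln3 window holds 1 core, Bnip3 5, Slc16a3 2, Slc2a1 2, Slc2a6 4 and Hk3 1. RefSeq promoters were found for 34 of the 36 genes (not for Bnip3l and Ndrg1), and 31 of these 34 had the core in at least 1 window. Counted over windows, 40 of 50 (80.0%) held it, beside 38.6% of 32851 windows of the same length over all genes. The NF-kB motif, searched by its name's consensus on both strands, was in 2.0% of the genes' windows and in 3.9% of all windows, and the core of the interferon-stimulated response element in 2.0% and 2.98%. These are matches of letters only.

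Library totals ranged from 46564 to 610234 UMIs (unique molecular identifiers, each meant to stand for 1 cDNA molecule), with a median of 171616.5, and the 3 Ctrl libraries were shallow at 61823 to 89530. The Ctrl libraries also held 5.35% to 5.62% of their UMIs in ribosomal protein genes, above the 3.30% to 5.06% of the single-ligand libraries, and whether this share bears on differences from Ctrl was not tested. All 10 dendritic cell markers were detected in the single-ligand libraries, and 9 of 10 in Ctrl (Zbtb46 was at 0). Of 7 macrophage markers 6 were detected in Ctrl, summing to 3047 to 3264 CPM, and of 8 neutrophil markers 6, summing to 595 to 831 CPM, while B cell, T or NK cell and erythroid markers were all at 0 there. The macrophage sum differed between single ligands, from a mean of 2692 CPM with Zymosan to 4076 with PAM, beside 3143 in Ctrl. The neutrophil sum was higher with LPS, at 1094, 876 and 1020 CPM, than in every Ctrl library. The part of both sums in the single-ligand results, the LPS rises of Slc2a6 and Hk3 included, was not tested. Over the 4690 tested genes outside the list, 2 libraries were nearest to a group whose Zymosan content differed from their label. HMW_SeV_cGAMP replicate 1 was nearest to Zymosan_cGAMP, and Zymosan_SeV_cGAMP replicate 1 was nearest to HMW_cGAMP. The library PAM_HMW_SeV replicate 3 had the highest total, 610234, and was nearest to PAM_LPS. For several counts over Zymosan contrasts, averages, triplets and interactions, values without these 3 libraries are also given.

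The summed level of the 36 genes was higher in most libraries with Zymosan than in those without. In CPM (UMIs of a gene scaled to a common library size, with sizes adjusted by TMM), the 66 libraries labelled with Zymosan ranged from 6986 to 15409 with a median of 13209. In the 126 libraries without it the sum ranged from 5726 to 13835 with a median of 6910. The overlap came from the 3 libraries that stand apart, at 13835, 6986 and 11835 in the order given above. Without them, 65 libraries with Zymosan lay between 10611 and 15409, and 124 without it lay between 5726 and 9268, with no overlap. This gap follows from leaving out the overlapping libraries themselves, which were picked after the data were seen. PAM_HMW_SeV replicate 3 was nearest to a group without Zymosan, as labelled, and with it kept the ranges overlap at 11835. The 22 groups with Zymosan had the 22 highest group means of 64. Library totals of both kinds were alike in the middle of their range, with a median of 165522 UMIs with Zymosan and 173812 without. In bulk RNA, fewer cells with a transcript and less transcript per cell cannot be told apart.

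**Figure D1:**
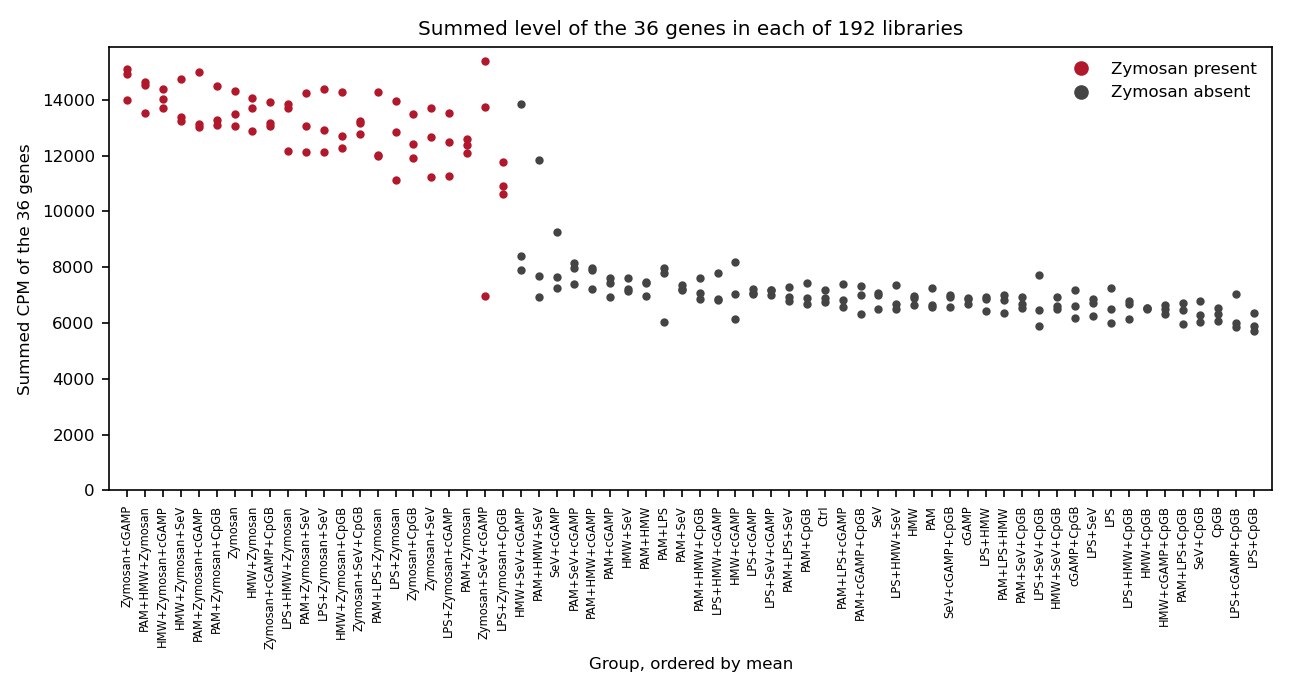
Summed CPM of the 36 genes (y axis) in each library, with the 64 groups on the x axis from the highest mean to the lowest, red for libraries labelled with Zymosan and dark grey for the others. Red points fill the left end at 10611 to 15409, apart from Zymosan_SeV_cGAMP replicate 1 at 6986, and HMW_SeV_cGAMP replicate 1 is the dark grey point at 13835.

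Zymosan alone raised 16 of the 30 tested genes against Ctrl and lowered none, where 4.43% of all 4720 genes were called higher and 1.82% lower. A call here needs a Benjamini-Hochberg adjusted p under 0.05 in the quasi-likelihood test of edgeR and a log2 fold change of 1 or more in size. The median log2 fold change of the 30 genes was 1.00, beside 0.02 over all genes tested, and all 30 were above 0. Unadjusted, 20 had p under 0.05 in the upward direction and 0 in the other. The count depended on the setting: DESeq2 called 7, libraries thinned to 46564 UMIs gave 6, and leaving out Ctrl replicate 2, Ctrl replicate 3 or Zymosan replicate 2 gave 9, 10 and 9, all of them higher. Without the 3 libraries that stand apart it was 15. No setting gave a lower call. Egln3 and Bnip3 are among the 16 and passed the filter only through libraries with Zymosan, and 14 of the 27 genes that passed without them were called.

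The calls of the single genes described next depended on the setting as well. In thinned libraries 11 of the 16 Zymosan calls were lost, those of Gpi1 (0.92) and Pgam1 (0.95) under the fold threshold, those of Slc2a1 and Pfkl (0.96, adjusted p = 0.424) past neither threshold, and those of Hk1, Pfkp, Pgm2, Egln1, Egln3, Bnip3 and P4ha1 with adjusted p of 0.151 to 0.465. The 6 calls there include 1 gene not among the 16. Among the calls of other ligands, 10 were lost there. They were Bnip3l with PAM (-0.70, adjusted p = 0.575), LPS (-1.68, adjusted p = 0.0713) and CpGB (-1.28, adjusted p = 0.202), P4ha1 with SeV (1.34, adjusted p = 0.181), cGAMP (1.37, adjusted p = 0.149) and CpGB (1.25, adjusted p = 0.218), Pfkl with PAM (0.98), Hk3 with SeV (0.95), Pdk1 with LPS (adjusted p = 0.310) and Vegfa with SeV (-1.16, adjusted p = 0.193). DESeq2 lost 9 Zymosan calls, of Slc2a1, Hk1, Gpi1, Pfkl, Pgam1, Pgm2, Egln1, Egln3 and Bnip3, and those of P4ha1 with CpGB and LPS and of Pfkl with PAM. RLE factors and library size alone each lost Slc2a1, Gpi1, Pgam1, Pgm2 and Egln1 with Zymosan, and library size alone also Pfkfb3 (0.95) and P4ha1 with LPS and Pfkl with PAM. With no filter on low counts Bnip3l with PAM, LPS and CpGB, Pdk1 with LPS and Vegfa with SeV were lost, and in a fit on the ligand and Ctrl alone Slc2a1 and Gpi1 with Zymosan and Pdk1 with LPS.

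**Figure D2:**
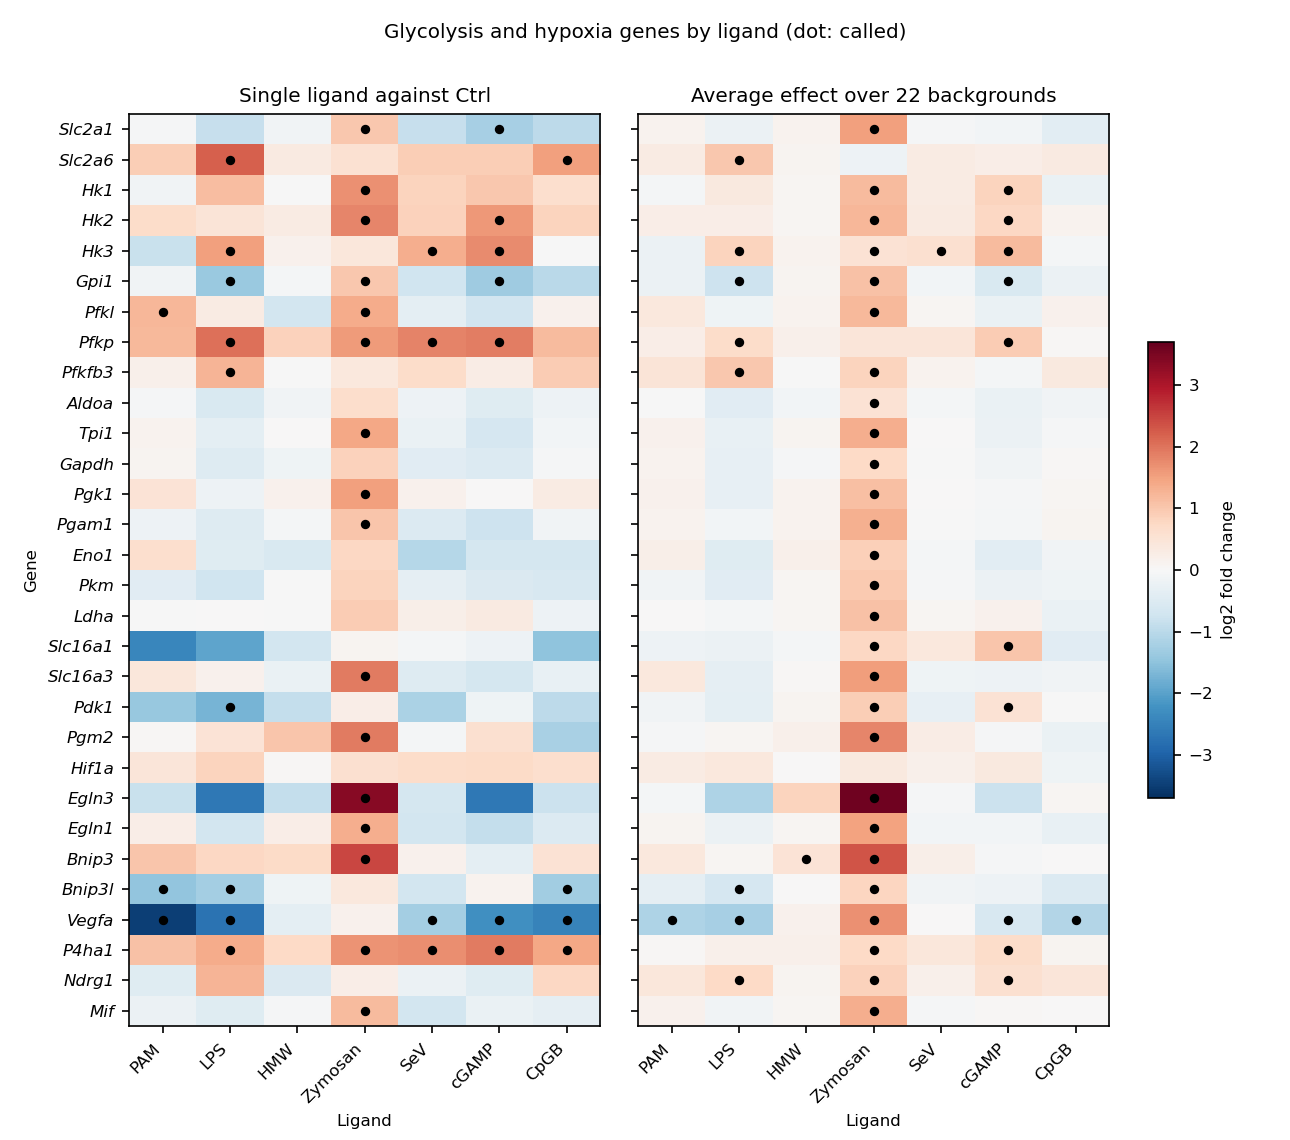
Log2 fold change of the 30 tested genes (rows) for the 7 ligands (columns), against Ctrl on the left and as the average over 22 backgrounds on the right, with red above 0, blue below 0 and a dot for a call. The Zymosan column has 16 dots on the left and 27 on the right, all in red cells, where Vegfa is blue for 6 single ligands on the left, 5 of them with a dot.

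The glucose transporters were Slc2a1, the widely used basal transporter, called with Zymosan and cGAMP, and Slc2a6, a family member found in leukocytes, called with LPS and CpGB. Slc2a1 was at 222, 287 and 269 CPM in the 3 Ctrl libraries and at 580, 538 and 471 in those with Zymosan. All 3 Zymosan libraries were above all Ctrl libraries, and the log2 fold change was 1.00 ± 0.25 (SE; adjusted p = 0.00254). This call sat at the fold threshold and was lost without Ctrl replicate 1 (0.93), Zymosan replicate 1 (0.94) or Zymosan replicate 2 (0.98), as well as with DESeq2 (0.88), in the thinned libraries (0.78, adjusted p = 0.131) and without the 3 libraries that stand apart (0.999). With cGAMP, Slc2a1 was at 174, 93.5 and 85.9 CPM, all below Ctrl, and it fell by 1.22 on the log2 scale (SE 0.33, adjusted p = 0.00225). This fall was -0.94 and -0.93 without replicate 2 or replicate 3 of every group and then passed neither threshold. Slc2a6 was at 96.96, 187 and 144 CPM in Ctrl and reached 514, 698 and 779 with LPS. It rose with LPS by 2.22 ± 0.25 (adjusted p = 1.26e-14) and with CpGB, at 330, 454 and 433 CPM, by 1.52 ± 0.27 (adjusted p = 1.12e-06). With Zymosan, Slc2a6 was at 193, 191.97 and 243 CPM, a log2 difference of 0.56 ± 0.31 that did not pass (adjusted p = 0.294).

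The hexokinases, which trap glucose in the cell by phosphorylating it, were called with between 1 and 3 single ligands each. Hk2, the inducible form, was at 96.96, 87.3 and 67.2 CPM in Ctrl, at 359, 243 and 280 with Zymosan and at 257, 240 and 252 with cGAMP. Both ligands kept it above every Ctrl library, with log2 fold changes of 1.80 ± 0.30 (adjusted p = 8.59e-07) and 1.59 ± 0.31 (adjusted p = 1.23e-05). Hk3, the form typical of myeloid cells, was at 125, 187 and 240 CPM in Ctrl. It reached 506, 510 and 622 CPM with LPS, a log2 fold change of 1.53 ± 0.24 (adjusted p = 2.17e-08). With SeV it was at 382, 483 and 544 CPM, a log2 fold change of 1.34 ± 0.25 (adjusted p = 5.44e-06). With cGAMP it was at 734, 567 and 632 CPM, a log2 fold change of 1.74 ± 0.24 (adjusted p = 2.96e-10). The libraries of these 3 ligands all lay above Ctrl, whereas those with Zymosan, at 267, 262 and 238 CPM, lay at and just above the top of the Ctrl range (0.41 ± 0.28, adjusted p = 0.436). In the direct comparison of single ligands, Hk3 was lower with Zymosan than with cGAMP by a log2 difference of -1.33 (adjusted p = 3.46e-09). Hk1, the housekeeping form, was at 13.9, 24.9 and 48.0 CPM in Ctrl and at 110, 96.0 and 103 with Zymosan. Its rise of 1.70 ± 0.52 (adjusted p = 0.0216) rested on 8 Ctrl counts in all and was lost without Ctrl replicate 1 (1.43, adjusted p = 0.115) or Ctrl replicate 2 (1.58, adjusted p = 0.0907).

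In the next steps, Gpi1, which turns glucose 6-phosphate into fructose 6-phosphate, moved in opposite directions with different ligands. It was at 194, 349 and 278 CPM in Ctrl and at 497, 506 and 639 with Zymosan. The rise was 1.00 ± 0.24 (adjusted p = 0.00175), and it dropped under the fold threshold without Ctrl replicate 1 (0.86) or Zymosan replicate 3 (0.86). With LPS, Gpi1 was at 81.9, 111 and 116 CPM and fell by 1.38 on the log2 scale (SE 0.31, adjusted p = 0.00012). With cGAMP it was at 91.7, 117 and 117 CPM and fell by 1.32 (SE 0.32, adjusted p = 0.000577). Zymosan libraries were all above and LPS and cGAMP libraries all below the Ctrl range. CpGB gave a log2 difference of -0.996 ± 0.30 for Gpi1 that stayed just inside the fold threshold.

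Phosphofructokinase commits the sugar to glycolysis, and its liver-type (Pfkl) and platelet-type (Pfkp) genes were both called with Zymosan. Pfkl was at 55.4, 74.8 and 67.2 CPM in Ctrl, at 144, 166 and 156 with PAM and at 166, 115 and 224 with Zymosan. Both sets of libraries were above Ctrl, by 1.23 ± 0.41 with PAM (adjusted p = 0.0228) and by 1.38 ± 0.41 with Zymosan (adjusted p = 0.0151). The PAM call was lost without Ctrl replicate 1 (1.14), Ctrl replicate 3 (1.24) or PAM replicate 2 (1.17), and the Zymosan call without Ctrl replicate 1 (1.30), Ctrl replicate 3 (1.39) or Zymosan replicate 3 (1.04).

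Pfkp was at 41.6, 12.5 and 67.2 CPM in Ctrl, from 11 UMIs in all. It was at 149, 161 and 210 with LPS (log2 2.03 ± 0.44, adjusted p = 5.08e-05), at 153, 138 and 169 with SeV (1.84 ± 0.46, adjusted p = 0.000942) and at 165, 158 and 160 with cGAMP (1.89 ± 0.45, adjusted p = 0.000505). With Zymosan it was at 120, 160 and 112 CPM (1.58 ± 0.47, adjusted p = 0.0146), a call lost without Ctrl replicate 2 (1.195) or Zymosan replicate 2 (1.41). In all 4 cases the ligand libraries lay above every Ctrl library. With PAM, where Pfkl was called, Pfkp was at 72.2, 161 and 55.6 CPM, overlapping Ctrl (1.199 ± 0.49, adjusted p = 0.0744), and no difference between both genes was tested. The muscle-type gene Pfkm had 48 UMIs over all libraries and was not tested. Pfkfb3, whose product makes the activator fructose 2,6-bisphosphate, was at 125, 62.4 and 86.4 CPM in Ctrl and at 186, 227 and 224 with LPS. It rose by 1.25 ± 0.33 (adjusted p = 0.00129), and with Zymosan it was at 101, 134 and 117 CPM, inside and just above the Ctrl range. Its relative Pfkfb4 had 311 UMIs in all, was highest in Ctrl with a group mean of 41.9 ± 12.3 CPM (SD, n = 3) and was not tested.

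The enzymes from aldolase to pyruvate kinase included 3 that rose with Zymosan alone, Tpi1, Pgk1 and Pgam1. Tpi1, which interconverts the 3-carbon sugars, was at 139, 187 and 144 CPM in Ctrl and at 377, 410 and 453 with Zymosan (1.42 ± 0.27, adjusted p = 3.23e-05). Pgk1, the first enzyme of the pathway to make ATP, was at 471, 611 and 624 CPM in Ctrl and at 1675, 1446 and 1763 with Zymosan (1.504 ± 0.18, adjusted p = 4.62e-13). Pgam1, phosphoglycerate mutase, was at 374, 412 and 346 CPM in Ctrl and at 690, 896 and 718 with Zymosan (1.04 ± 0.21, adjusted p = 6.67e-05). In these 3 genes every Zymosan library exceeded every Ctrl library, and Pgam1 fell under the fold threshold without Ctrl replicate 3 (0.97) or Zymosan replicate 2 (0.91).

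Values for Aldoa, Gapdh, Pkm and Eno1 with Zymosan stayed under a log2 fold change of 1. Pkm, the pyruvate kinase gene, was at 1468, 1160 and 1248 CPM in Ctrl and at 2190, 2284 and 2305 with Zymosan, all above Ctrl (0.81 ± 0.15, adjusted p = 4.96e-06). Gapdh gave 0.86 ± 0.19 (adjusted p = 0.000553), Aldoa, the main aldolase gene, 0.66 ± 0.17 (adjusted p = 0.00263), and Eno1, enolase, 0.75 ± 0.53 (adjusted p = 0.472). The aldolase gene Aldoc had 643 UMIs in all and was not tested. Gapdh has 77 other genes with near-identical stretches, most of them pseudogenes, and Pgk1, Pgam1, Tpi1, Pkm, Ldha, Gpi1, Eno1, Mif, Bnip3, Bnip3l and Ndrg1 have between 1 and 5 (Pfkp shares sequence with its overlapping neighbour Pitrm1), so their counts may include or lose UMIs of copies.

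At the end of the pathway, Ldha, the lactate dehydrogenase subunit that favours lactate, was at 1136, 1247 and 1181 CPM in Ctrl and at 2172, 2220 and 2421 with Zymosan. The log2 fold change of 0.94 ± 0.17 (adjusted p = 6.18e-06) missed the fold threshold, and every Zymosan library was above every Ctrl library. Slc16a3, the lactate exporter of glycolytic cells, was at 139, 24.9 and 76.8 CPM in Ctrl and at 258, 326 and 308 with Zymosan. It rose by 1.94 ± 0.38 (adjusted p = 5.34e-05). The related transporter gene Slc16a1 was at 27.7, 24.9 and 19.2 CPM in Ctrl and at 9.20, 51.2 and 14.0 with Zymosan, with no difference called for any single ligand. Pdk1, a kinase that inhibits pyruvate dehydrogenase, was at 69.3, 24.9 and 57.6 CPM in Ctrl and at 14.9, 22.2 and 8.95 with LPS. The LPS libraries all lay below Ctrl, by -1.72 ± 0.70 (adjusted p = 0.049), a call lost without Ctrl replicate 1, Ctrl replicate 3, LPS replicate 1 or LPS replicate 3 (log2 -1.44, -1.58, -1.71 and -1.38). Pgm2, listed under a symbol that has been used for 2 phosphoglucomutase genes, was at 55.4, 24.9 and 0 CPM in Ctrl and at 110, 115 and 60.6 with Zymosan. It rose by 1.92 ± 0.65 (adjusted p = 0.0409), all Zymosan libraries above Ctrl, and the call was lost without Ctrl replicate 2 (1.97), Ctrl replicate 3 (1.19), Zymosan replicate 1 (1.81) or Zymosan replicate 2 (1.71).

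**Figure D3:**
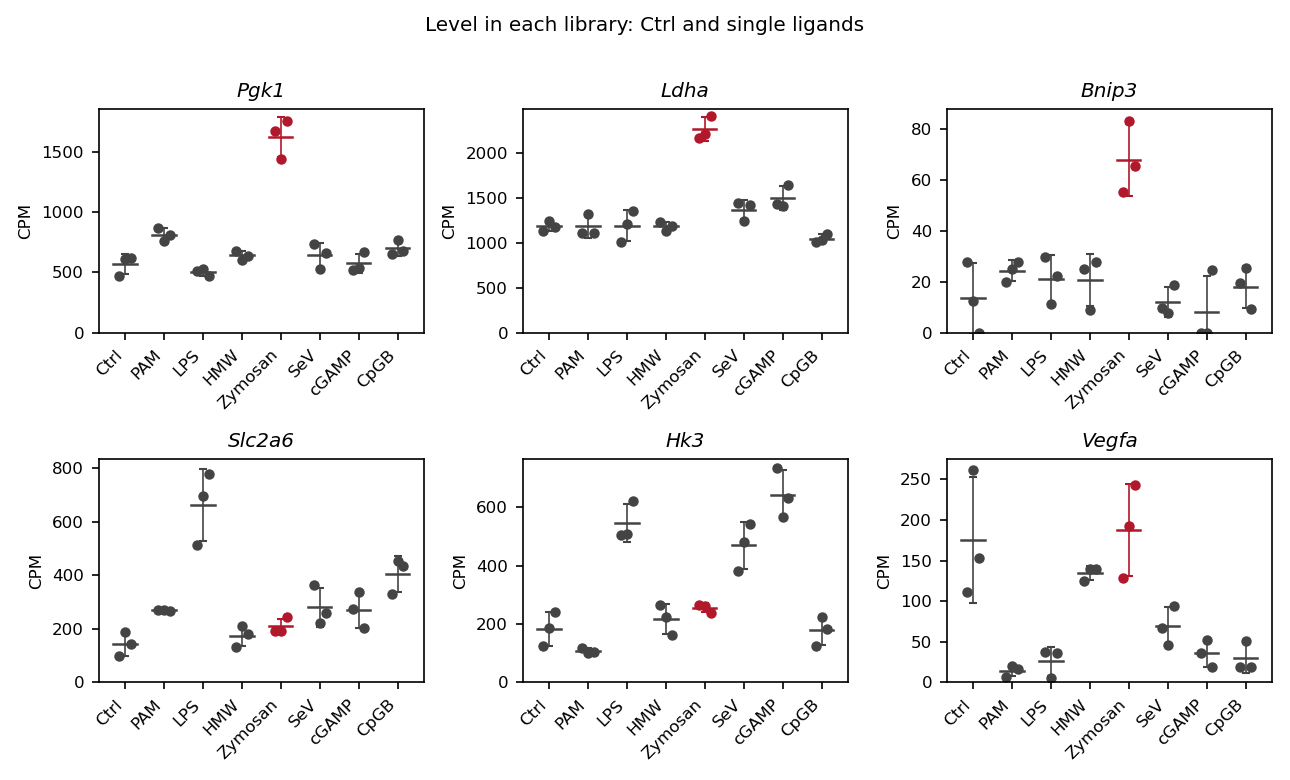
CPM (y axis) of Pgk1, Ldha, Bnip3, Slc2a6, Hk3 and Vegfa in each library of Ctrl and the 7 single ligands (x axis), points for the 3 libraries, lines for mean and SD, Zymosan in red and the rest in dark grey. Pgk1 and Ldha are highest with Zymosan and Slc2a6 with LPS, Hk3 lies above Ctrl with LPS, SeV and cGAMP, and Vegfa is low with PAM, LPS, cGAMP and CpGB.

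Of the regulators of the oxygen response, Hif1a was called with no single ligand. It was at 83.1, 112 and 134 CPM in Ctrl and at 193, 166 and 159 with Zymosan, a log2 difference of 0.59 ± 0.33 (adjusted p = 0.312). LPS, at 119, 222 and 242 CPM, gave the largest difference, 0.84 ± 0.31 (adjusted p = 0.0302), under the fold threshold. Egln1, the main prolyl hydroxylase, was at 69.3, 49.9 and 38.4 CPM in Ctrl and at 129, 141 and 121 with Zymosan, and rose by 1.34 ± 0.46 (adjusted p = 0.0448). This call was lost when any 1 Ctrl or Zymosan library was left out, with log2 values of 1.12 to 1.58. Egln3, the hydroxylase gene that itself responds to hypoxia-inducible factor, had 1 UMI in the 3 Ctrl libraries and 5, 5 and 13 with Zymosan. The ratio of pooled levels was 12.3, with an exact interval of 2.00 to 507 that covers counting error only. The adjusted p for Egln3 was 0.0297, and the call was lost without Ctrl replicate 2, Ctrl replicate 3 or Zymosan replicate 3 (adjusted p = 0.125, 0.190 and 0.125).

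Of the targets of the oxygen response, Bnip3, which marks mitochondria for removal, had 2, 1 and 0 UMIs in Ctrl and 6, 13 and 14 with Zymosan, a pooled ratio of 5.89 (1.85 to 30.0, counting error only). Its call (adjusted p = 0.0184) was lost without Ctrl replicate 2, Ctrl replicate 3 or Zymosan replicate 2 (adjusted p = 0.0576, 0.208 and 0.0647). The related gene Bnip3l was at 125, 150 and 106 CPM in Ctrl and fell with 3 ligands. It was at 45.9, 40.2 and 50.0 CPM with PAM (-1.45 ± 0.43, adjusted p = 0.00697), at 44.7, 44.3 and 62.6 with LPS (-1.26 ± 0.41, adjusted p = 0.012), and at 38.8, 81.7 and 27.7 with CpGB (-1.30 ± 0.42, adjusted p = 0.014). All 9 of these libraries were below Ctrl, but without Ctrl replicate 2 none of the 3 calls held (adjusted p = 0.0541, 0.0834 and 0.106), and the CpGB call was also lost without Ctrl replicate 1 (-1.22) or CpGB replicate 3 (-0.91).

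Vegfa, the vascular growth factor gene, fell with 5 of 7 single ligands and did not pass with HMW or Zymosan. It was at 111, 262 and 154 CPM in Ctrl. With PAM it was at 6.56, 20.1 and 16.7 CPM and fell by 3.48 on the log2 scale (SE 0.52, adjusted p = 7.56e-09). LPS left 37.2, 5.54 and 35.8 CPM (-2.72 ± 0.47, adjusted p = 3.12e-07), CpGB 19.4, 51.1 and 18.4 (-2.48 ± 0.46, adjusted p = 2.97e-06) and cGAMP 36.7, 52.6 and 18.4 (-2.26 ± 0.46, adjusted p = 2.76e-05). The libraries of these 4 ligands were all below Ctrl. SeV, at 66.9, 46.0 and 93.8 CPM, gave -1.26 ± 0.40 (adjusted p = 0.0137), lost without Ctrl replicate 2 (-0.85) or SeV replicate 2 (-1.05, adjusted p = 0.0758). With Zymosan, Vegfa was at 129, 191.97 and 243 CPM, across the Ctrl range, and the direct log2 difference between LPS and Zymosan was -2.88 (adjusted p = 7.53e-10).

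P4ha1, a collagen prolyl hydroxylase subunit, was called higher with 5 single ligands, more than any other gene of the list. It was at 55.4, 24.9 and 38.4 CPM in Ctrl, from 10 UMIs. With cGAMP it was at 156, 158 and 135 CPM (1.91 ± 0.44, adjusted p = 0.000295), with SeV at 162, 115 and 122 (1.72 ± 0.46, adjusted p = 0.00237) and with Zymosan at 110, 160 and 107 (1.67 ± 0.46, adjusted p = 0.00658). CpGB gave 97.04, 133 and 87.6 CPM (1.43 ± 0.47, adjusted p = 0.0144) and LPS 81.9, 105 and 112 (1.37 ± 0.47, adjusted p = 0.0161). Every library of the 5 ligands was above Ctrl, and the Zymosan, CpGB and LPS calls were lost without Ctrl replicate 2 (1.46, 1.29 and 1.19) or Ctrl replicate 3 (1.65, 1.42 and 1.35). The Zymosan call was also lost without Zymosan replicate 2 (1.46), the CpGB call without CpGB replicate 2 (1.205) and the LPS call without LPS replicate 3 (1.27). Mif, a secreted cytokine, was at 291, 150 and 173 CPM in Ctrl and at 488, 378 and 490 with Zymosan, all above Ctrl, and rose by 1.18 ± 0.26 (adjusted p = 0.000363), or 0.98 (adjusted p = 0.0599) without replicate 3 of every group. Ndrg1, a stress-response gene, was called with no single ligand.

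Summarised by ligand, the other 6 single ligands had between 0 and 9 calls, beside the 16 of Zymosan, and 5 of them had calls both ways. LPS gave 5 higher and 4 lower of 30, with 24.2% of all genes called. This order depended on the setting: with DESeq2 LPS had 9 calls, Zymosan 7 and cGAMP 7, and in thinned libraries LPS had 8, Zymosan 6 and cGAMP 6. With cGAMP 4 were higher and 3 lower (17.6% of all genes). SeV gave 3 and 1 (15.6%), PAM 1 and 2 (13.9%), and CpGB 2 and 2 (17%). In thinned libraries SeV had 1 call and CpGB 2. The CpGB count was 2 without Ctrl replicate 2 and 7 without CpGB replicate 1. HMW gave no call (0.975% of all genes), and 0 of its 30 genes had an unadjusted p under 0.05 in edgeR's test, while DESeq2 also called 0. Their median log2 fold changes lay between -0.29 with cGAMP and 0.03 with PAM, near or below those of all genes, which lay between -0.09 and 0.03. Set directly against Zymosan, 17 genes were higher with Zymosan than with SeV and none lower, where 8.43% of all genes were higher. Against cGAMP 17 were higher (8.83% of all genes) and 1, Hk3, lower. Against LPS 20 were higher (9.19%) and 2, Slc2a6 and Hk3, lower. Against CpGB 18 were higher (6.78%), against PAM 18 (5.04%) and against HMW 14 (3.77%), with none lower. These counts are over all 30 genes. Slc16a1, Egln3 and Bnip3 among them passed the filter only through libraries with Zymosan, and any calls of theirs give no support. Over all 21 contrasts between single ligands, 158 of 630 gene tests were called, beside 13.7% for all genes.

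A measure that does not lean on the Ctrl libraries alone is the average effect of a ligand, the mean log2 difference over 22 backgrounds (Ctrl, the 6 other single ligands and their 15 pairs) between the group with the ligand and the group without it. Called here means an adjusted p under 0.05 and an absolute value of at least 0.5. For Zymosan 27 of 30 genes were higher and none lower, where 8.58% of all genes were higher and 3.81% lower. Unadjusted, 29 genes had p under 0.05 upward and 1 downward, Slc2a6 at -0.20 ± 0.04. Of the 30 genes, Slc16a1, Egln3 and Bnip3 passed the filter on low counts only through libraries with Zymosan, and their calls give no support. Among the 27 genes that passed in libraries without Zymosan too, the 3 libraries that stand apart left out, 24 were higher on average, beside 7.63% of all genes that did so. Not called were Slc2a6, Pfkp at 0.44 ± 0.06 and Hif1a at 0.37 ± 0.05. Without the 3 libraries that stand apart, and without the Ctrl background, the same 27 genes were called, and without replicate 3 of every group 25 were.

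In the order of the pathway, the average effect of Zymosan was 1.52 ± 0.05 for Slc2a1. It was 1.18 ± 0.09 for Hk1, 1.22 ± 0.04 for Hk2 and 0.53 ± 0.04 for Hk3. Of the phosphofructokinase genes, Pfkl was at 1.19 ± 0.08 and Pfkp at 0.44, and Pfkfb3 was at 0.83 ± 0.06. From Gpi1 (1.09 ± 0.06) through Tpi1 (1.36 ± 0.05), Pgk1 (1.11 ± 0.03) and Pgam1 (1.33 ± 0.04) to Pkm (0.95 ± 0.03) and Ldha (1.07 ± 0.03) the enzymes lay between 0.95 and 1.36, with Aldoa (0.53 ± 0.03), Gapdh (0.72 ± 0.04) and Eno1 (0.89 ± 0.11) below. Slc16a3 was at 1.56 ± 0.07 and Slc16a1 at 0.78 ± 0.19. Pgm2 reached 1.81 ± 0.11 and Pdk1 0.92 ± 0.14. In thinned libraries Slc16a1 was at 0.21 (adjusted p = 1) and Pdk1 at 0.57 (adjusted p = 0.0743), and both calls were lost. With library size alone Aldoa and Hk3 were at 0.48, under the threshold.

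For Bnip3, tested only because of its level with Zymosan, the average effect was 2.32 ± 0.12. Its relative Bnip3l was at 0.79 ± 0.08, Vegfa at 1.69 ± 0.11, Egln1 at 1.48 ± 0.09, Mif at 1.34 ± 0.05, Ndrg1 at 0.85 ± 0.13 and P4ha1 at 0.73 ± 0.06. The fitted value for Egln3 was 3.60, but 16 of the 64 groups hold no Egln3 UMI, and for such a gene the edgeR test of an average is not well determined (adjusted p = 9.43e-27 with all libraries and 1 without replicate 3 of every group). With limma-voom, chosen after this was seen, Egln3 gave 2.48 ± 0.16 (adjusted p = 1.72e-32) and the Zymosan count was again 27. Egln3 was also tested only because of its level with Zymosan, so neither of its tests gives support. The 27 again include Slc16a1, Egln3 and Bnip3. In UMIs, Egln3 had 340 in the 66 libraries with Zymosan and 25 in the 66 matched libraries without it, a pooled ratio of 13.5 (9.01 to 21.2, counting error only). For Bnip3 the same totals were 1024 and 212, a ratio of 4.81 (4.14 to 5.60).

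Level by library shows how far apart the groups lay. Bnip3 ranged from 31.4 to 209 CPM with a median of 93.0 over the 66 libraries with Zymosan, and from 0 to 130 with a median of 20.5 over the 126 without. Without the 3 libraries that stand apart its highest value without Zymosan was 58.1 CPM. Slc2a1 ranged from 170 to 726 CPM (median 474) with Zymosan and from 76.4 to 518.5 (median 154) without. Without the 3 libraries the Slc2a1 ranges were 296 to 726 and 76.4 to 294, so that they no longer overlapped. The same held for Pgam1, at 529 to 1041 CPM with Zymosan and 137 to 447 without, once the 3 were left out. As the 3 were picked after the data were seen, these gaps are description only. Slc2a6 went the other way in its median, at 354 CPM with Zymosan (179 to 624) and 511 without (96.96 to 883), and the ranges overlapped.

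**Figure D4:**
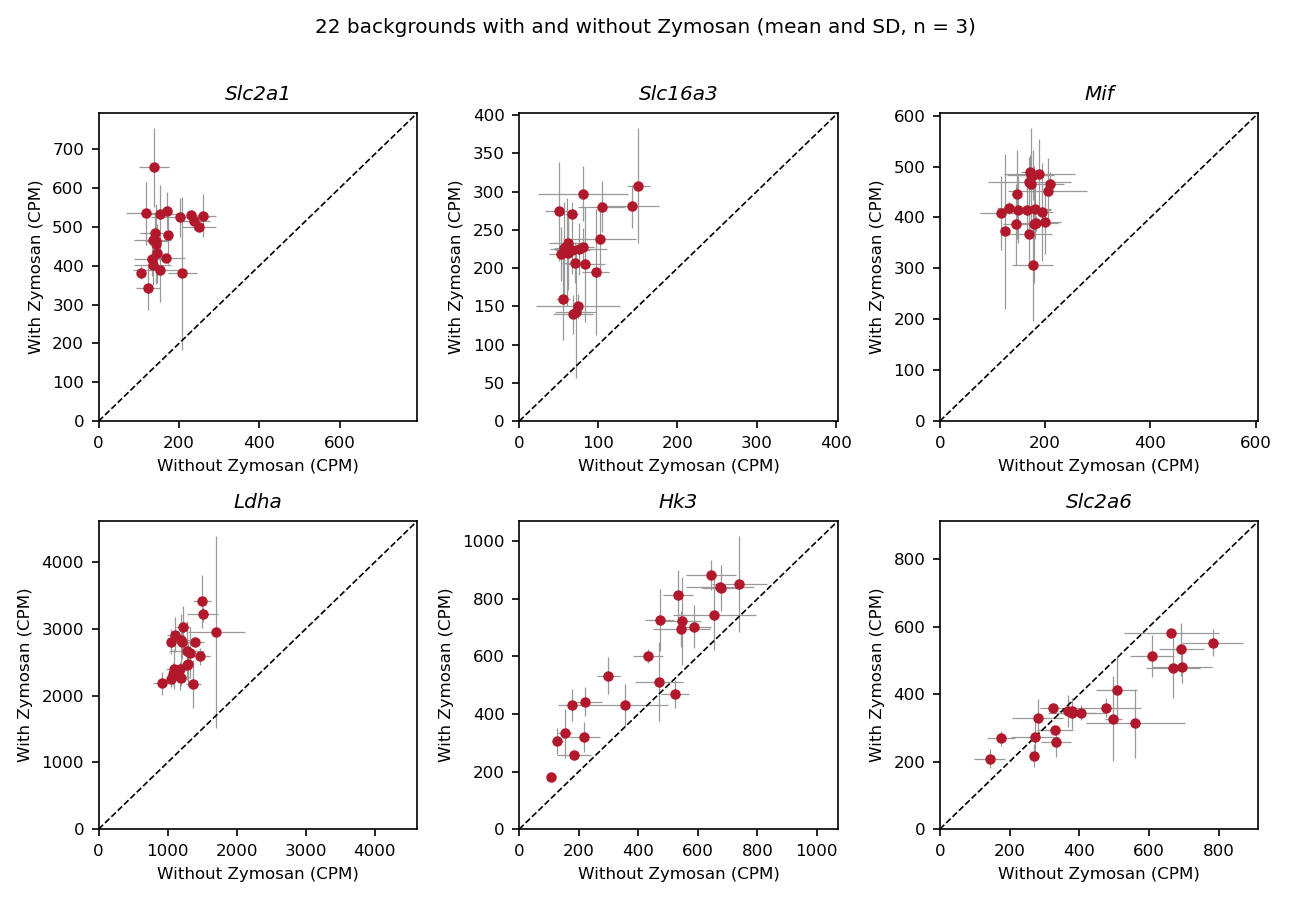
Mean CPM of Slc2a1, Slc16a3, Mif, Ldha, Hk3 and Slc2a6 in each of 22 backgrounds without Zymosan (x axis) and with it (y axis), with SD bars for 3 libraries and a dashed line of equality. Slc2a1, Slc16a3, Mif and Ldha lie above the line in all 22 backgrounds, Hk3 in 21, and Slc2a6 in 5.

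Taken background by background, adding Zymosan gave 299 higher and 0 lower calls among 660 gene tests at a log2 difference of at least 1, beside 2.51% higher and 0.897% lower over all genes. Unadjusted, 501 had p under 0.05 upward and 6 downward. Of the 299 calls, 20 were of Bnip3 and 10 of Egln3. Both genes, and Slc16a1 with 0 calls, passed the filter only through libraries with Zymosan, and their calls give no support. Thinned libraries gave 147, and leaving out replicate 3 of every group gave 191, all higher. Without replicate 1 of every group 273 were higher and 1 lower. Each background had between 8 and 18 calls, apart from SeV_cGAMP with 1. In that pair, Zymosan_SeV_cGAMP replicate 1 is one of the libraries that stand apart. Without the 3, SeV_cGAMP had 10 calls, the other backgrounds had 8 to 19, and the total was 312. Tpi1, Pgam1 and Mif were called in 21 of 22 backgrounds and in 22 without those libraries. Slc2a1 and Bnip3 were called in 20, Slc16a3 in 18, Pgk1, Pgm2 and Egln1 in 17, and Hk2, Gpi1 and Vegfa in 15. Without those libraries Slc16a3 was called in 19, Pgk1, Pgm2 and Egln1 in 18, Vegfa in 17 and Gpi1 in 16, while Slc2a1, Bnip3 and Hk2 did not change. Aldoa, Slc16a1 and Slc2a6 were called in none, and Aldoa was nevertheless higher with Zymosan in the mean of all 22 backgrounds, by 0.19 to 0.90, while Slc2a6 was higher in 5.

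For Vegfa, which fell with 5 ligands given alone, the log2 difference on adding Zymosan ranged from 0.16 on Ctrl to 2.98 on cGAMP_CpGB. Of these differences between backgrounds, those between each single ligand and Ctrl were tested, as interactions of Zymosan with the other 6 ligands. They were 0.49 to 1.68 for Vegfa and none was called (adjusted p = 0.167 to 0.959). On cGAMP, Vegfa went from 36.7, 52.6 and 18.4 CPM to 89.8, 154 and 126, all above, a rise of 1.77 ± 0.44 (adjusted p = 0.00299). On LPS it went from 37.2, 5.54 and 35.8 CPM to 63.2, 75.9 and 110, again all above, a rise of 1.64 ± 0.47 (adjusted p = 0.0177). Slc2a1, which had fallen with cGAMP, went from 174, 93.5 and 85.9 CPM to 473, 627 and 503 when Zymosan joined it, a rise of 2.26 ± 0.26 (adjusted p = 4.16e-13).

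The averages of LPS and cGAMP called 8 and 10 of the 30 genes, and those of the other 4 ligands 1 each. LPS raised Slc2a6 (0.99 ± 0.04), Pfkfb3 (0.98 ± 0.06), Hk3 (0.82 ± 0.04), Ndrg1 (0.74 ± 0.13) and Pfkp (0.67 ± 0.06) and lowered Vegfa (-1.22 ± 0.16), Gpi1 (-0.76 ± 0.07) and Bnip3l (-0.61 ± 0.09), where 26% of all genes were called. For cGAMP, 8 genes were higher and 2 lower (24.6% of all genes), led by Hk3 (1.16 ± 0.04), Slc16a1 (1.02 ± 0.18) and Pfkp (0.94 ± 0.06), with Vegfa at -0.60 ± 0.14 and Gpi1 at -0.57 ± 0.06. The Gpi1 value was -0.45 without replicate 1 of every group. SeV raised Hk3 (0.60 ± 0.04) alone (10.5% of all genes), and PAM (12.4%) and CpGB (11.2%) each lowered Vegfa alone, by -1.13 ± 0.15 and -1.08 ± 0.14. HMW raised Bnip3 (0.52 ± 0.14, adjusted p = 0.00443; 0.381% of all genes), which was 0.47 and under the threshold without the 3 libraries that stand apart, 0.47 and 0.49 without replicate 1 or replicate 2 of every group, 0.49 with library size alone, and 0.899 with an adjusted p of 1 in thinned libraries. When the Zymosan average was set against each of the other 6, 145 of 180 gene tests were higher for Zymosan and 5 lower (11.3% and 10.7% over all genes). The 5 were Slc2a6 against LPS (-1.19), SeV (-0.50) and CpGB (-0.54), and Hk3 (-0.64) and Pfkp (-0.50) against cGAMP. Among the 145 were Egln3 and Bnip3 against every other ligand, and Slc16a1 against PAM, LPS, HMW and CpGB. These genes passed the filter only through libraries with Zymosan, and their calls give no support. The averages compared here share libraries.

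Against Ctrl, the pairs gave 202 calls among 630 gene tests (156 higher and 46 lower, beside 22.2% of all genes) and the triplets 426 of 1050 (352 and 74, beside 25.9%). Without the 3 libraries that stand apart, the triplets gave 432 calls (354 higher and 78 lower) and the pairs 204. With all libraries, over the 63 conditions Pfkp and P4ha1 were higher in 57 each, Slc2a6 in 54, Hk2 in 53, Hk3 in 48, Pfkfb3 in 29 and Hif1a in 25. All conditions share the 3 Ctrl libraries, in which Slc2a6, Hk2, Pfkp, Hif1a and P4ha1 had their lowest group mean of 64. Vegfa was lower in 49, Bnip3l in 31, Gpi1 in 27 and Pdk1 in 11. Aldoa, Gapdh and Slc16a1 were called in 0 by edgeR, with unadjusted p under 0.05 upward in 7, 15 and 0 conditions and downward in 27, 11 and 3. Hif1a ranged from 110 ± 25.7 CPM in Ctrl to 337 ± 3.10 in PAM_SeV_cGAMP (SD, n = 3).

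Pairs were also set against the sum of both single log2 effects. An interaction, the pair minus both singles plus Ctrl, was called in 13 of 630 gene tests, 4 above and 9 below additivity, beside 4.58% of all genes. It was 4 without replicate 2 and 7 without replicate 3 of every group, 19 (9 above) without the 3 libraries that stand apart, and 2 in thinned libraries. Slc2a6, raised by LPS and by CpGB alone, was at 650, 601 and 752 CPM with both, in the range of LPS alone, which gave an interaction of -1.53 ± 0.32 (adjusted p = 7.52e-05), lost in thinned libraries (-1.196, adjusted p = 0.0611). Hk3 with LPS_cGAMP was at 613, 685 and 740 CPM, close to each ligand alone, with an interaction of -1.42 ± 0.30 (adjusted p = 9.45e-05), also lost there (-1.04, adjusted p = 0.112). P4ha1 with LPS_CpGB was at 96.2, 79.4 and 84.6 CPM (-1.68 ± 0.57, adjusted p = 0.0312), lost without replicate 2 or 3 of every group (-1.26 and -1.83), in thinned libraries (-2.17, adjusted p = 0.108), with DESeq2 (adjusted p = 0.0761) and with library size alone (adjusted p = 0.0578).

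With all libraries, the 4 interactions above additivity were in genes that had been lowered by a single ligand. Vegfa with SeV_cGAMP was at 98.4, 89.1 and 73.4 CPM (2.49 ± 0.62, adjusted p = 0.0017), and Slc2a1 with the same pair at 215, 241 and 169 CPM (1.74 ± 0.44, adjusted p = 0.00189). In both genes the pair lay nearer to Ctrl than cGAMP alone did, and both calls were lost without replicate 2 of every group (2.26 and 1.34), that of Slc2a1 also without replicate 3 (1.59). Bnip3l with PAM_CpGB was at 66.8, 104 and 64.003 CPM (2.10 ± 0.60, adjusted p = 0.00988), lost without replicate 2 (2.17) or replicate 3 (1.98), with no filter on low counts (1.89, adjusted p = 0.0559) and in thinned libraries, where it was 1.04 (adjusted p = 0.698). Slc2a1 with cGAMP_CpGB, at 1.48 ± 0.45 (adjusted p = 0.0226), was the remaining one.

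A pair lay above both of its single ligands by 1 or more on the log2 scale in 3 of 630 gene tests of the list (0.476%), a share near the 0.336% of all gene tests over 21 pairs. The rule does not use Ctrl, and all 3 were in Zymosan_cGAMP. Hk2 was at 645, 743 and 557 CPM in the pair, above the 359, 243 and 280 of Zymosan and the 257, 240 and 252 of cGAMP, and exceeded the nearer single ligand by 1.16 (adjusted p = 3.27e-07). Pfkp was at 318, 448 and 382 CPM in the pair, with a margin of 1.26 (adjusted p = 0.000187). Hk1 was at 253, 192.04 and 198 CPM, with a margin of 1.04 (adjusted p = 0.0431). In all 3 genes each library of the pair lay above each library of both single ligands. The interaction of this pair was not called for Hk2 (-0.43 ± 0.37, adjusted p = 0.795), Pfkp (-0.32 ± 0.55, adjusted p = 0.922) or Hk1 (0.04 ± 0.98, adjusted p = 0.999). The Hk1 margin was lost without replicate 1, 2 or 3 of every group (1.00, 1.09 and 1.14) and the Hk2 margin was 0.96 without replicate 2 and 0.92 with library size alone. In thinned libraries 1 of the 3 calls was left, as Pfkp had a margin of 0.84 and Hk1 of 0.68 (adjusted p = 1 for both). The Hk1 margin was also lost with DESeq2 (adjusted p = 0.193), RLE factors (0.995) and library size alone (0.80).

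**Figure D5:**
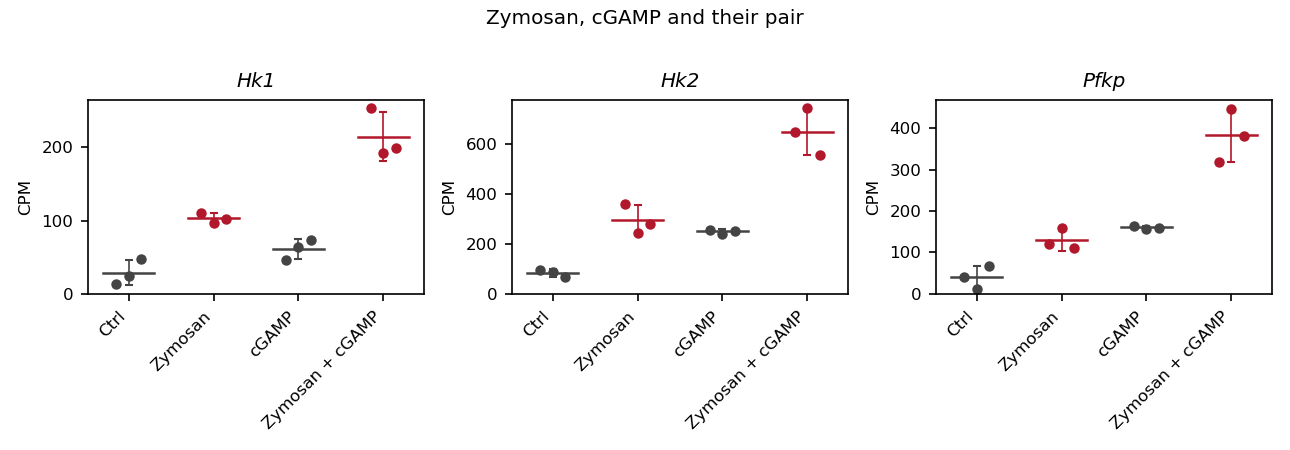
CPM (y axis) of Hk1, Hk2 and Pfkp in the 3 libraries of Ctrl, Zymosan, cGAMP and their pair (x axis), with lines for mean and SD and red for groups with Zymosan. The pair is the highest group in each panel, at 192.04 to 253 for Hk1, 557 to 743 for Hk2 and 318 to 448 for Pfkp.

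Among genes of the same pathways outside the list, 9 of 14 tested genes from 29 further genes of the hypoxia-inducible factor pathway were higher with Zymosan on average and none lower, with a median of 0.94 beside -0.03 for all genes, of which 8.58% were higher and 3.81% lower. They were Hilpda, a lipid droplet protein (2.84 ± 0.09), Hmox1, heme oxygenase (1.84 ± 0.05), Ero1l, an oxidase of the endoplasmic reticulum (1.79 ± 0.08), the adenylate kinase gene Ak4 (1.62 ± 0.11), Fam162a (1.49 ± 0.12), the repressor gene Bhlhe40 (1.198 ± 0.08), Higd1a (1.09 ± 0.07), the glycogen branching enzyme gene Gbe1 (0.79 ± 0.09) and the histone demethylase gene Kdm3a (0.71 ± 0.12). Hilpda was at 27.7, 24.9 and 28.8 CPM in Ctrl and at 285, 250 and 219 with Zymosan alone, with no overlap. Which libraries carried these 14 genes past the filter on low counts was not checked. Some may have been tested only because of their level with Zymosan, so the count of 9 gives no separate support. The lists were also chosen with earlier results of these data known. Of 7 tested genes among 28 further glycolysis and pyruvate genes, none was called for Zymosan on average (median -0.26). Of 9 tested glycogen and pentose phosphate genes, Gbe1, which is in both lists, and Gys1 (1.60 ± 0.17) were higher with Zymosan on average and none lower. In that list LPS had 6 lower on average (G6pdx, Gbe1, Gys1, Pgd, Pygl and Tkt, from -0.53 to -0.87) and none higher, where 26% of all genes were called in either direction, cGAMP had 2 lower (G6pdx and Gys1, beside 24.6% of all genes called) and SeV 1 (Gys1, beside 10.5%), both near the share over all genes. Of 19 tested genes of the tricarboxylic acid cycle, none was higher and Idh1 was lower with Zymosan on average (-0.69 ± 0.11), as it was with PAM, LPS, SeV, cGAMP and CpGB. The other falls in this list were Idh2 with PAM, LPS and CpGB, Aco1 with LPS and cGAMP, and Fh1 with LPS. With at most 4 of 19 genes, the average of each of these 5 ligands stayed under its share of calls in either direction over all genes (10.5% to 26%). Against Ctrl, LPS alone lowered 6 of the 19 (24.2% of all genes called either way), CpGB 4 (17%) and PAM 3 (13.9%). SeV lowered 1 (15.6%), cGAMP 1 (17.6%), Zymosan 1 (1.82% of all genes lower) and HMW 0 (0.975%). None was higher, and the median with LPS was -0.77, beside -0.06 for all genes.

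Marker levels of other cell types were read beside the Zymosan results. Summed dendritic cell markers had a median of 7827 CPM in libraries with Zymosan (6402 to 9082) and 7706 without (6101 to 9665). The 7 macrophage markers in the table had medians of 2695 (1937 to 3902) and 3042 (2032 to 5543), and the 8 neutrophil markers 747 (398 to 1139) and 823 (440 to 1200). Erythroid markers were at 0 in every library, and the medians of B cell and of T or NK cell markers were 0 with and without Zymosan. Ribosomal protein genes took a median of 3.45% of UMIs with Zymosan and 3.39% without. Their part in the differences was not tested.

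The 6 genes under the filter were compared by UMI totals over the 66 libraries with Zymosan and the 66 matched libraries without it, with no test. Adm, the adrenomedullin gene, had 41 and 10 UMIs, a ratio of 4.08 (2.01 to 9.13). Ankrd37 had 190 and 67 (2.82, interval 2.12 to 3.79), and Mxi1, a Myc antagonist, 275 and 145 (1.89, interval 1.54 to 2.32). These 3 targets of the oxygen response had intervals above 1. For Aldoc the totals were 223 and 204 (1.09, interval 0.895 to 1.32), for Pfkfb4 105 and 134 (0.780, interval 0.598 to 1.01) and for Pfkm 12 and 18 (0.663, interval 0.291 to 1.46). The intervals of these 3 glycolysis genes included 1, and all intervals cover counting error only.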

How the data were processed

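The data are whole-number UMI counts per gene symbol in 3 libraries of each of 64 groups, deposited by the authors without normalization. The submitters' processing notes name BWA 0.7.15 and the mm10 build; the roles of both, the annotation and the rule for collapsing UMIs are not given in the sources used here. The analysis used edgeR 4.0.16 under R 4.3.3: filterByExpr by group kept 4720 of 23481 genes and 95.7% of UMIs, libraries were scaled by TMM, and 1 quasi-likelihood model with a coefficient per group was fitted to all libraries (128 residual degrees of freedom, common biological coefficient of variation 10.3%), with Benjamini-Hochberg adjustment within each contrast. CPM here are counts scaled to a common library size after TMM. DESeq2 1.42.0 (Wald tests from its group coefficients), limma 3.58.1 (voom), other scalings and filters, thinned libraries and left-out libraries were alternatives. The scripts were tested on simulated data. Near-identical copies were searched with BLAST 2.17.0+ at 95% identity over at least 300 bases.

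The members and lists were chosen with earlier results of these data known. By rule, library values are given for members called with a single ligand, at most the 4 largest rises and 3 largest falls of each, and for members of 1 enzyme family; of average effects, the 3 largest each way; of interactions, the 6 with the smallest adjusted p, 1 per gene; of genes above both single ligands, up to 6. The contrasts of Zymosan added to each background, of its average against the others, the fit without the 3 libraries that stand apart, the check of which libraries carried a gene past the filter, and limma-voom were chosen after seeing the data. Same-numbered libraries of different groups had a median correlation of 0.0081 over 6048 pairs, so this measure showed no pairing by replicate number. It does not exclude a shared replicate effect on the listed genes. Their summed CPM was higher in replicate 3 than in replicate 1 in most groups, though not in all, and the cause was not tested.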

Additional observations from a re-analysis of the deposited data

How the results depend on the processing

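For the calls against Ctrl, average effects, interactions and margins above both single ligands, 1218 comparisons with an alternative kept direction and call, 182 kept direction but not the call, and none reversed. Of the 43 calls of single ligands against Ctrl, 21 were lost in thinned libraries, 12 with DESeq2, 14 without replicate 2 of every group, and 8, 13 and 11 without Ctrl replicate 1, 2 or 3. Against the TMM fit, the centre of all tested genes (median over 63 conditions, log2) moved by -0.16 with RLE factors, -0.16 with DESeq2, -0.36 with library size alone, -0.11 in thinned libraries and 0.24 with no filter on low counts; relative to the centre of all genes, library size alone called 12 genes higher for Zymosan. The cause of the changes below was not tested.

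For Zymosan against Ctrl the count of 16 was 7 with DESeq2, 6 in thinned libraries and 9 to 13 with a replicate left out. SeV gave 1 and CpGB 2 in thinned libraries, and CpGB 2 to 8 with a replicate left out. For the average effects, CpGB gave 2 with RLE factors, library size alone, thinned libraries or DESeq2, PAM 2 with no filter, and HMW 0 with library size alone, in thinned libraries and without the 3 libraries that stand apart; with a replicate left out PAM gave 1 to 3, HMW 0 to 1, SeV 1 to 2 and CpGB 1 to 2. With no fold threshold PAM gave 6 and CpGB 8 against Ctrl, and the averages 19 for PAM, 24 for LPS, 6 for HMW, 7 for SeV, 21 for cGAMP and 15 for CpGB. The 299 calls for added Zymosan became 147 in thinned libraries and 191 to 274 with a replicate left out. Interactions fell from 13 to 2 in thinned libraries and were 4 to 17 with a replicate left out; genes above both single ligands were 1 with library size alone and in thinned libraries, and 2 with a replicate left out.

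With the replicate number as a block, the pairing changed none of the calls it was run on (43 against Ctrl, 49 average effects, 6 interactions and 3 margins above both single ligands); counts were 204 for pairs, 428 for triplets, 16 for interactions and 301 for added Zymosan.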
